A study of Mus musculus with 19 samples.

Results

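The 101 genes described here lie side by side on mouse chromosome 4, between 132.5 and 142.5 Mb of the build GRCm39. They are the protein-coding genes of that window with a mean of at least 1 TPM (a level scaled for gene length and for the depth of the library) over 19 libraries. The window holds 187 protein-coding genes in the deposited tables, of which 82 were under the TPM minimum, 18 of them listed at 0 in every library, and 4 were left out by the rule, among them the 3 complement C1q chains. The tables list 56941 genes, and 20501 were tested. The window itself was chosen by the measured differences between ICAM-1 null and wild type cells, in naive and in exposed mice, because many of its genes differed. All values of null against wild type below are therefore a description, without a test, and the counts of genes that differ support nothing.

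The cells were bronchoalveolar lavage pellets, labelled as alveolar macrophages, phagocytes that live in the air sacs of the lung, from female mice 7 to 8 weeks old. There were 5 naive ICAM-1 null mice, 4 naive wild type (C57Bl/6J) mice, 5 exposed ICAM-1 null mice and 5 exposed wild type mice. Exposed mice had received 100 µL of pHrodo-labelled Staphylococcus aureus bioparticles at 2.27 mg/mL by oropharyngeal aspiration under isoflurane and were lavaged 1 h later with 2 mM EDTA in saline. The labels cite an earlier publication for the null line, and name no strain background and no littermates for it, so loss of ICAM-1 cannot be told apart from any other difference between the lines. The sources used here do not say whether naive mice received vehicle or isoflurane.

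ICAM-1, an adhesion molecule, serves integrins of leukocytes as a ligand, and its gene lies on chromosome 9, not in this window. The members share a place on a chromosome, not a pathway. Genes that lie close together on a chromosome are usually inherited together. Sequence of the null line was not analysed here.

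Estimated counts totalled 32.8 to 80.3 M per library, and the 3 shallowest libraries were naive wild type libraries 1, 2 and 3 at 32.8 to 41.0 M. Icam1 averaged 8.13 TPM in naive null and 74.6 TPM in naive wild type libraries, and 10.8 TPM in exposed null and 899 TPM in exposed wild type libraries. The 10 alveolar macrophage markers summed to 21008 to 28271 TPM in every library, whereas 4 B cell markers summed to at most 1.32 TPM. Most of the macrophage sum was Chil3, with group means of 14476 to 16822 TPM, so the sum says little about the other markers. Marco averaged 1844 TPM in naive null and 478 TPM in naive wild type libraries, and Car4 averaged 436 and 975 TPM. The 5 red cell markers summed to 369.7 to 2399 TPM in exposed wild type libraries and to at most 409.6 TPM in libraries of the other groups.

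Mean levels of the members ran from 1.03 TPM for Camk2n1, an inhibitor of a calmodulin-dependent kinase, to 1016 TPM for Cdc42, a small GTPase that directs actin assembly, with a median of 30.5 TPM. There were 22 members at 100 TPM or more and 17 under 5 TPM. Epha2 at 1.25 TPM was the next member inside the minimum, and Mfap2 at 0.987 TPM and E130218I03Rik at 0.795 TPM lay just outside it. Mice of a group agreed closely, with a median coefficient of variation over members of 9.10% in naive null, 7.84% in naive wild type, 11.5% in exposed null and 14.4% in exposed wild type libraries.

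The members with the largest genotype difference, Fblim1, Tmem51, Cep85 and Id3, were all lower in null cells, and the 250 bases before their annotated starts are shown here for that reason. The sequences are those of RefSeq on the older build GRCm38.p6, a build other than that of the tables, and they are written 5′ to 3′ on the strand of the gene with every CG dinucleotide in capitals.
Fblim1, one annotated start, chr4:141599999-141600248, minus strand: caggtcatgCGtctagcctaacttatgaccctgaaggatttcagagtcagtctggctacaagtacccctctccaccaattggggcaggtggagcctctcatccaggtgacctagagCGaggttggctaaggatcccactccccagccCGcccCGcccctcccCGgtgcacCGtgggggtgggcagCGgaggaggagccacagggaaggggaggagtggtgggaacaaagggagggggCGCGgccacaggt
Fblim1, another annotated start, chr4:141606053-141606302, minus strand: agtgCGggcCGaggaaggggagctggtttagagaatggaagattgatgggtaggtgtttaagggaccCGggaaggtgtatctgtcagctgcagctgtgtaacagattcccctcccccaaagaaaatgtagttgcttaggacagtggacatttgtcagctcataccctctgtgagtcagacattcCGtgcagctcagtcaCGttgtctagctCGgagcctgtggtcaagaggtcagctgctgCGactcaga
Tmem51, chr4:142084305-142084554, minus strand: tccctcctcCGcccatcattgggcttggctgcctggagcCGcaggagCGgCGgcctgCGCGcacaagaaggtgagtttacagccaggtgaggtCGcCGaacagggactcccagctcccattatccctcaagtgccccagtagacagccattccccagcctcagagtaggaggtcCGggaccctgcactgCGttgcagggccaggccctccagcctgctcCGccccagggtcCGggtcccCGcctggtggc
Cep85, chr4:134187086-134187335, minus strand: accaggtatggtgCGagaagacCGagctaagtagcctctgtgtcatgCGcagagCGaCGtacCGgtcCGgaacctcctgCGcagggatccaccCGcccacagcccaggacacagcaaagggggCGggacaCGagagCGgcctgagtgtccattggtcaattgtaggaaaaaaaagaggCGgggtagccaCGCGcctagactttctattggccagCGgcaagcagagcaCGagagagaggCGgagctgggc
Id3, chr4:136143572-136143821, plus strand: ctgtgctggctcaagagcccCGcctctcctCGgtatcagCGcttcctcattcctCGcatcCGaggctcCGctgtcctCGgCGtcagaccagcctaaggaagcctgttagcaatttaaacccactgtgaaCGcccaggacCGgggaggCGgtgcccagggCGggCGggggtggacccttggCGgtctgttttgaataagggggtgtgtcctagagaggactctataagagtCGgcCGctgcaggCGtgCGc
The 2 windows of Fblim1 hold 9 and 7 CG dinucleotides, that of Tmem51 holds 13, and those of Cep85 and Id3 hold 18 each. Over the 118 promoter windows of the 87 members in the RefSeq table the median was 18 CG dinucleotides, against 6 over all 32851 windows in it. The members were chosen by gene type and level, and the 27025 genes of all windows were not. No set matched for both was taken, so nothing is read from this difference.

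In naive mice, 31 of the 101 members differed between null and wild type cells, 10 higher and 21 lower in null (edgeR, adjusted p under 0.05 over all genes tested). The share called was 30.7% of the members, against 6.86% of all genes tested and 10.3% of protein-coding genes at 1 TPM or more (6.51% higher and 3.79% lower). In exposed mice, 31 members differed, 7 higher and 24 lower in null, against 8.48% of all genes tested and 12.6% of protein-coding genes at 1 TPM or more (6.29% higher and 6.31% lower). These contrasts picked the window, so nothing is read from the shares. On a log2(TPM + 1) scale the naive split was 6 higher and 21 lower.

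Of these, 22 members were called in both conditions, 21 of them in the same direction, and 61 were called in neither. Among protein-coding genes at 1 TPM or more, 2.67% were lower and 3.38% higher in null both times. The 15 members lower in null both times were Wdtc1, Hmgn2, Cd52, Sh3bgrl3, Cep85, Stmn1, Paqr7, Man1c1, Rcan3, Nipal3, Id3, E2f2, Luzp1, Fblim1 and Tmem51. The 6 higher both times were Gpn2, Zdhhc18, Arid1a, Fuca1, Ece1 and Ddost. Not all of these calls were firm: over 19 fits that each left out 1 library, the naive call was lost in 9 for Paqr7, 8 for Stmn1, 6 for Wdtc1, 5 for Man1c1 and 3 for E2f2, and the exposed call in 7 for Ece1 and 4 for Ddost. For 60 of the 101 the mean of both log2 fold changes was within 0.25 of 0. Opposite signs cancel in that mean, as for Pdik1l at 0.44 in naive and -0.49 in exposed mice. In naive mice the median size of the log2 fold change was 0.19 over members and 0.13 over protein-coding genes at 1 TPM or more. The same medians in exposed mice were 0.20 and 0.14. The median log2 fold change was -0.07 over members and 0.01 over all genes tested in naive mice, and -0.07 over members and -0.0046 over all genes tested in exposed mice. Without naive wild type libraries 1, 2 and 3 together, the naive count was 9.

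Fblim1 encodes migfilin, a filamin-binding LIM protein that links cell adhesions to actin. It stood at 2.86, 7.30, 3.63, 2.99 and 4.84 TPM in naive null libraries, against 34.6, 36.5, 32.0 and 33.7 TPM in naive wild type libraries. In exposed mice it stood at 3.72, 2.34, 4.4, 3.69 and 4.85 TPM in null libraries, against 21.3, 24.0, 31.2, 25.9 and 27.5 TPM in wild type libraries. The null libraries were all under the wild type libraries in both conditions, and the log2 fold changes were -2.88 (SE 0.22) in naive and -2.71 (SE 0.22) in exposed mice.

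Tmem51 encodes a transmembrane protein and is the last member of the window. It stood at 8.79, 7.90, 7.76, 7.35 and 7.34 TPM in naive null libraries, against 50.1, 50.1, 58.4 and 46.3 TPM in naive wild type libraries. After exposure the values were 4.29, 4.01, 4.46, 4.22 and 3.10 TPM in null libraries, against 21.6, 22.7, 28.2, 20.1 and 23.4 TPM in wild type libraries. The groups were apart in both conditions by a wide margin, with log2 fold changes of -2.65 (SE 0.11) in naive and -2.49 (SE 0.11) in exposed mice.

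Cep85 encodes a centrosomal protein. It stood at 29.9, 38.4, 32.6, 29.7 and 35.6 TPM in naive null libraries, against 216, 179, 458 and 505 TPM in naive wild type libraries. In exposed mice it stood at 248, 184, 219, 202 and 323 TPM in null libraries, against 533, 1553, 1536, 1730 and 1404 TPM in wild type libraries. The groups did not overlap in either condition. Wild type library 1 stood far below the other exposed wild type libraries. The log2 fold changes on counts were -2.68 (SE 0.27) in naive and -2.16 (SE 0.26) in exposed mice.

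Id3 encodes a helix-loop-helix protein that blocks DNA binding by its partners. It stood at 3.49, 7.45, 4.60, 4.72 and 3.22 TPM in naive null libraries, against 12.9, 11, 11 and 23.8 TPM in naive wild type libraries. In exposed mice it stood at 22.9, 18, 32.0, 27.9 and 29.7 TPM in null libraries, against 96.8, 70.0, 118, 95.1 and 94.8 TPM in wild type libraries. Null libraries were below wild type libraries without overlap in both conditions, with log2 fold changes of -1.56 (SE 0.25) in naive and -1.83 (SE 0.23) in exposed mice.

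**Figure D1:**
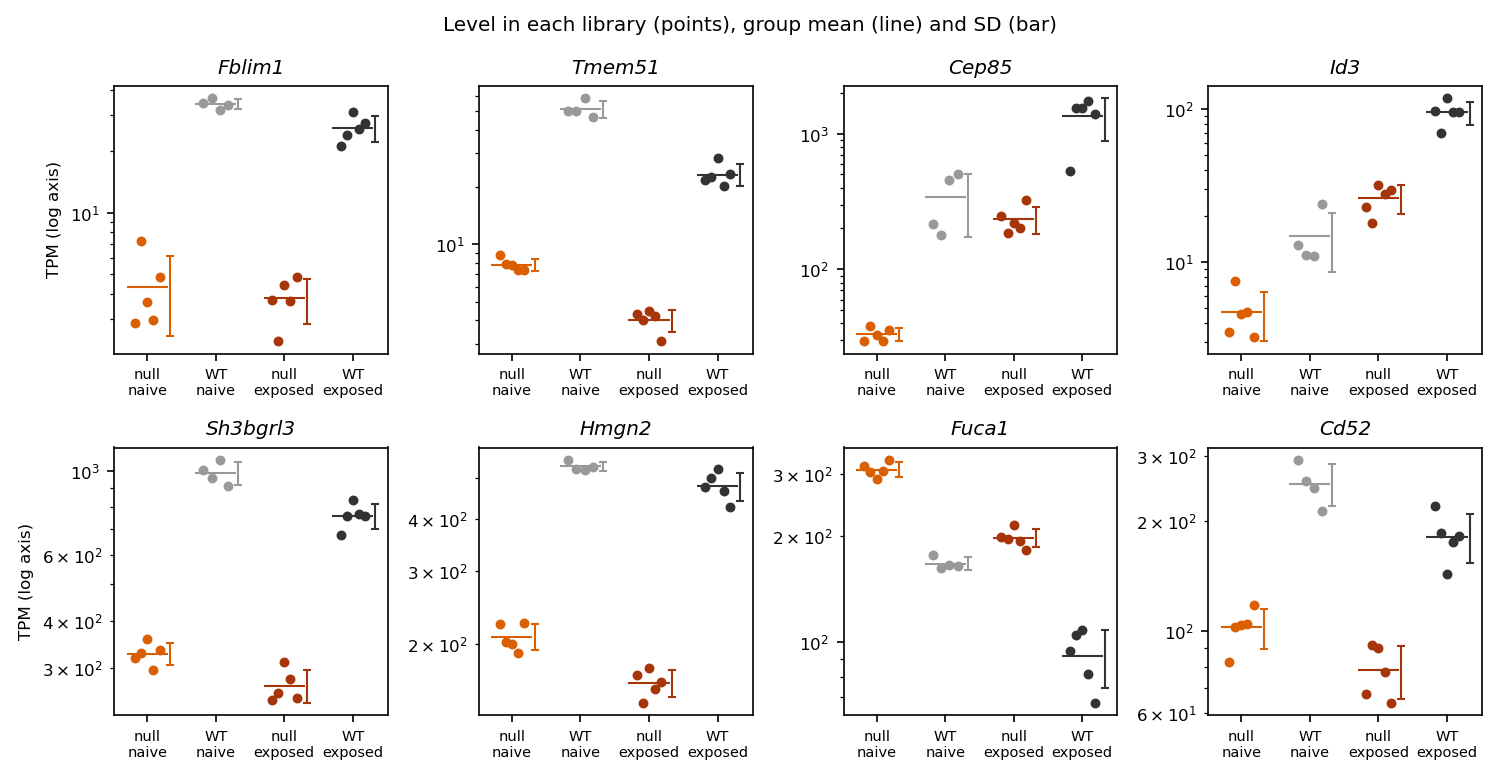
TPM (log axis, a separate scale for each gene) of the 8 members with the largest mean genotype difference, by group, with null left of wild type (WT) in each condition. Points are libraries, lines group means and bars SD. Null libraries lie below wild type libraries without overlap for 7 genes in both conditions, and above them for Fuca1.

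Abundant members were among the lower ones. Sh3bgrl3, a small protein with a thioredoxin-like fold, stood at 320, 330, 358, 296 and 336 TPM in naive null libraries, against 1005, 956, 1070 and 912 TPM in naive wild type libraries. In exposed mice it averaged 270 ± 26.9 TPM in null and 760 ± 57.5 TPM in wild type libraries (SD, n = 5 each). Hmgn2, a nucleosome-binding high mobility group protein, averaged 208 ± 15.1 TPM in naive null (n = 5) and 534 ± 13.9 TPM in naive wild type libraries (n = 4), and 161 ± 11.8 TPM in exposed null and 478 ± 37.2 TPM in exposed wild type libraries (n = 5 each). The ranges of Sh3bgrl3 and Hmgn2 did not overlap between genotypes in either condition. The span of Sh3bgrl3 shares 188 bases with Ubxn11 on the opposite strand, which averaged 3.0 TPM.

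Cd52, a small glycoprotein anchored on the surface of leukocytes, stood at 82.5, 103, 104, 104 and 118 TPM in naive null libraries, against 293, 257, 245 and 213 TPM in naive wild type libraries. It averaged 78.2 ± 12.8 TPM in exposed null and 181 ± 27.5 TPM in exposed wild type libraries (n = 5 each). Null lay below wild type without overlap both times. Lymphocytes carry this protein too, and the 6 T and NK cell markers summed to 244 to 305 TPM in naive null and 514 to 579 TPM in naive wild type libraries, and to 195 to 243 TPM in exposed null and 363 to 409 TPM in exposed wild type libraries. Most of that sum was Cd2, at 236 TPM in naive null and 496 TPM in naive wild type libraries, and it was 1 of 6 markers to differ. The T cell receptor chain Cd3e averaged 5.12 TPM in naive null and 6.75 TPM in naive wild type libraries. The part of lymphocytes in the difference of Cd52 was not tested, and in a pellet of mixed cells, fewer cells of a type and less RNA per cell cannot be told apart.

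Smaller differences in the same direction were seen for Rcan3, a calcineurin regulator, Nipal3, of the NIPA family of magnesium transporters, and Paqr7, a membrane progestin receptor. Rcan3 averaged 8.25 ± 1.95 TPM in naive null and 13.8 ± 1.52 TPM in naive wild type libraries, and 3.06 ± 0.604 TPM in exposed null and 5.69 ± 0.366 TPM in exposed wild type libraries. The log2 fold changes of Nipal3 were -0.68 (SE 0.13) in naive and -0.92 (SE 0.12) in exposed mice. Those of Paqr7 were -0.52 (SE 0.15) in naive and -0.92 (SE 0.15) in exposed mice.

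Fuca1, the lysosomal enzyme that removes fucose from glycans, had the highest mean of both log2 fold changes. It stood at 316, 302, 289, 306 and 329 TPM in naive null libraries, against 177, 162, 165 and 164 TPM in naive wild type libraries, and at 199, 196, 215, 193 and 183 TPM in exposed null libraries, against 94.8, 105, 109, 81.2 and 67.5 TPM in exposed wild type libraries. Every null library lay above every wild type library of its condition, and the log2 fold changes were 1.20 (SE 0.09) in naive and 1.23 (SE 0.08) in exposed mice.

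Ece1, the endothelin-converting protease, stood at 5.59, 4.91, 5.04, 4.66 and 6.24 TPM in naive null libraries, against 1.68, 2.80, 2.02 and 2.74 TPM in naive wild type libraries, with no overlap. In exposed mice it averaged 5.35 ± 0.53 TPM in null and 4.0 ± 0.732 TPM in wild type libraries (n = 5 each), closer together. Its span shares 1604 bases with Gm13012, a long noncoding RNA gene on the opposite strand at 10.5 TPM, and the strand setting of the counting is not given, so reads of the pair may be mixed. Gpn2, a GPN-loop GTPase, was higher in null by 0.48 (SE 0.11) in naive and 0.51 (SE 0.10) in exposed mice on the log2 scale. Arid1a, a subunit of the SWI/SNF chromatin remodeller, was higher by 0.47 (SE 0.06) in naive and 0.30 (SE 0.06) in exposed mice. Nbl1, Ddi2, Atp13a2 and Ddost, also among the 10 highest, had log2 fold changes of 0.20 to 0.43 in naive and 0.23 to 0.68 in exposed mice.

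The 7 members lower and the 1 member higher in null by at least 1 on the log2 scale in both conditions are those plotted by library above. Members that reached 1 in a single condition were Sfn at -1.08 in naive and -0.0020 in exposed mice, Ece1 at 1.25 in naive and 0.47 in exposed mice, and Zdhhc18 at 0.48 in naive and 1.22 in exposed mice. Over the 101 members the naive and exposed log2 fold changes had a Pearson correlation of 0.889 and a Spearman correlation of 0.682. These genes are not independent and were chosen for these values. Over the 11041 other protein-coding genes at 1 TPM or more the Pearson correlation was 0.680. The ranges of TPM did not overlap for 43 members in naive mice, 9 higher and 34 lower in null, against 15.3% of protein-coding genes at 1 TPM or more (5.89% higher and 9.38% lower). They did not overlap for 18 in exposed mice, 2 higher and 16 lower, against 7.97% of those genes (3.47% higher and 4.5% lower). In both conditions, 14 members had separate ranges with null lower and 2, Fuca1 and Zdhhc18, with null higher. The share of other genes with separate ranges in both conditions was not taken, and nothing is read from these counts.

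**Figure D2:**
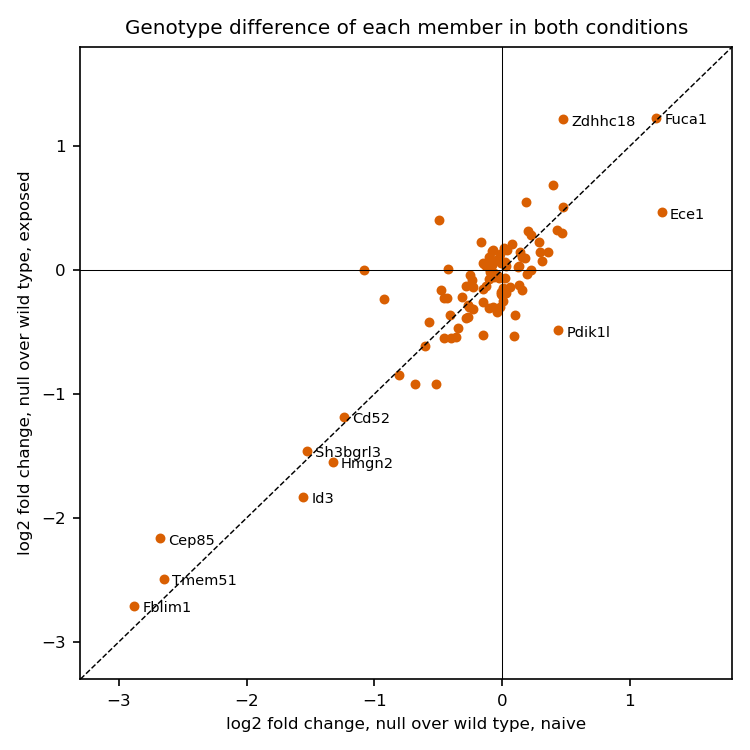
Log2 fold change of null over wild type for each of the 101 members in naive (x axis) and exposed (y axis) mice, on estimated counts. The dashed line marks equal values. Most points lie near 0, Fblim1, Tmem51 and Cep85 lie lowest on both axes, and Pdik1l lies at 0.44 in naive and -0.49 in exposed mice.

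The genotype differences were unevenly spread along the window. The 1 Mb step with the most calls, from 133.5 to 134.5 Mb, held 15 members, of which 8 were called in naive mice, 7 of them lower in null, and 10 in exposed mice, all 10 lower. In the step from 138.5 to 139.5 Mb, 1 of 12 members was called in naive and 0 of 12 in exposed mice. Hmgn2, Cd52, Sh3bgrl3 and Cep85 lie within a span of 222 kb that holds 6 members, and only 1068 bases separate Sh3bgrl3 (positions 133854717 to 133856100) from Cep85 (133857169 to 133914423), both on the minus strand. By sign alone, the 5 neighbours Cd52, Ubxn11, Sh3bgrl3, Cep85 and Zfp593, over 163 kb, formed a run with lower values in null both times. Fblim1 (141303373 to 141333407) and Tmem51 (141758303 to 141811615), near the far edge, bound a stretch of 508 kb with 8 members.

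Fuca1 (135648046 to 135667622), higher in null, and Id3 (135870808 to 135873066), lower in null, lie in the same 1 Mb step, so neighbours did not all share a direction. Outside the window, protein-coding genes at 1 TPM or more were called in naive mice at 17.6% of 102 genes in the 10 Mb before it and 8.96% of 67 genes in the 10 Mb after it. The share was 13.5% of 401 genes on the rest of chromosome 4 and 9.91% on all other chromosomes. The largest naive log2 fold change in size was 2.88 among members, 4.51 in the 10 Mb before the window and 6.25 on the rest of chromosome 4. In exposed mice the shares were 20.6% before the window, 7.46% after it, 14.2% on the rest of chromosome 4 and 12.3% on all other chromosomes. Rpa2, the nearest gene outside the near edge, had log2 fold changes of 0.10 in naive and -0.19 in exposed mice, and Smpdl3b, the next, had -1.11 in naive and -1.20 in exposed mice. Themis2, the first member inside that edge, had -0.36 (SE 0.22) in naive and -0.54 (SE 0.21) in exposed mice. Beyond the far edge the nearest gene, Prdm2, had -0.13 in naive and 0.10 in exposed mice.

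**Figure D3:**
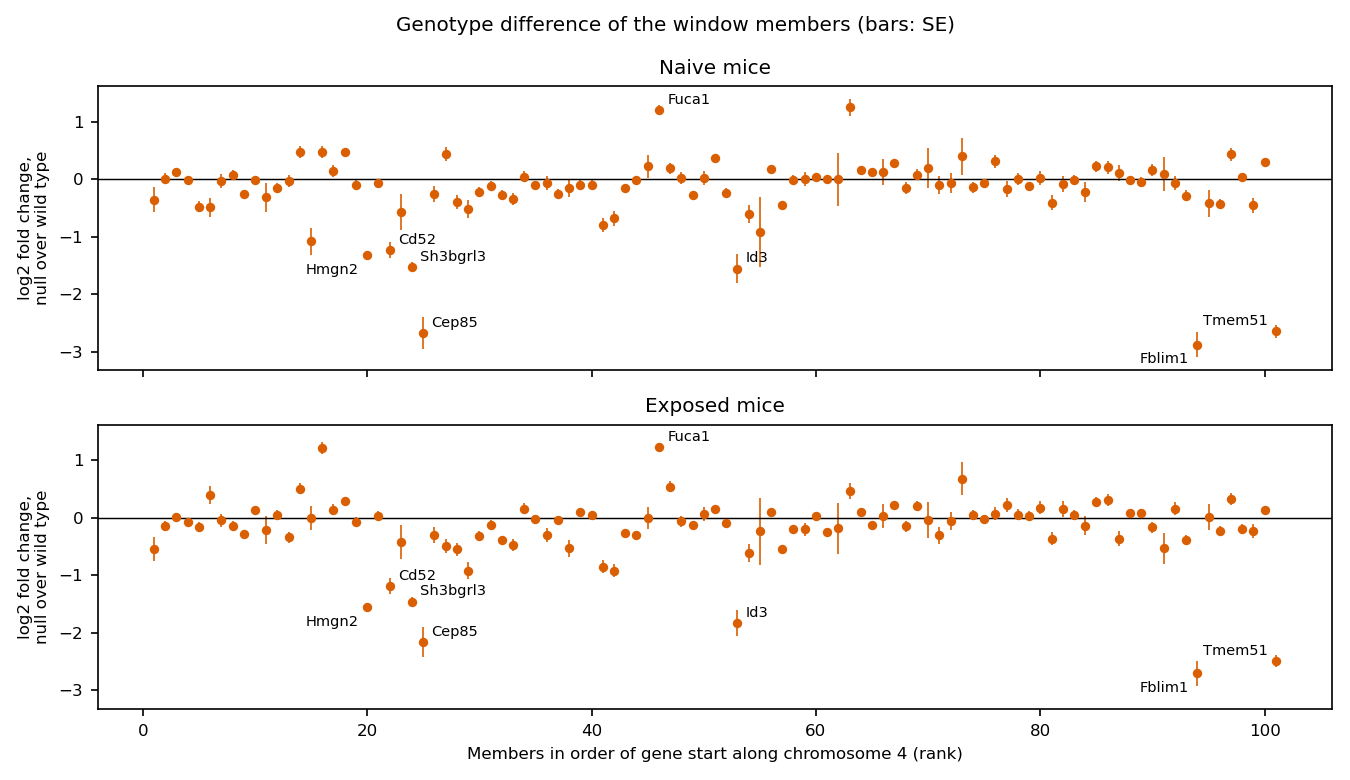
Log2 fold change of null over wild type (estimated counts, bars SE) for the 101 members in order of gene start, in naive (upper panel) and exposed (lower panel) mice. The 8 members with a mean of at least 1 in size are named; in both panels Hmgn2, Cd52, Sh3bgrl3 and Cep85 lie low near one another, and Fblim1 and Tmem51 lie low at the far end.

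By role, 79 members fell into 7 lists and 22 into none. The 22 include Fblim1, although it links adhesions to actin, and Stmn1. Both were lower in null both times, and the cytoskeleton counts leave them out. The lists were assigned by hand, and some placements are loose. Nipal3 is counted with the lysosome and glycan genes, and Szrd1 with those of ubiquitin and proteolysis. The counts below stand against 6.51% higher and 3.79% lower in naive mice and 6.29% higher and 6.31% lower in exposed mice among protein-coding genes at 1 TPM or more. Of 15 members for the cytoskeleton and membrane traffic, 4 were lower and 0 higher in null in naive mice, and 3 were lower and 0 higher in exposed mice, with median log2 fold changes of -0.07 and -0.05. Of 13 transcription factors and chromatin proteins, 2 were higher and 3 lower in null in naive mice and 1 was higher and 4 lower in exposed mice. Of 13 leukocyte signalling and immune genes, 3 were higher and 3 lower in naive mice and 2 were higher and 4 lower in exposed mice. Of 13 genes of the lysosome and of sugar and glycan metabolism, 2 were higher and 3 lower in naive and 2 were higher and 2 lower in exposed mice. Of 11 genes of RNA processing and translation, 1 was higher in each condition, and 0 were lower in naive and 3 in exposed mice. The 8 mitochondrial members had 0 higher and 1 lower in naive and 1 higher and 1 lower in exposed mice, and the 6 of ubiquitin and proteolysis had 1 higher and 0 lower in naive and 0 higher and 1 lower in exposed mice.

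The 6 most abundant members were Cdc42, Rpl11, Sh3bgrl3, Capzb, Cep85 and Rsrp1, and the large differences of Sh3bgrl3 and Cep85 are given above. Cdc42 averaged 1058 ± 74.2 TPM in naive null and 1080 ± 45.5 TPM in naive wild type libraries, and 968 ± 64.6 TPM in exposed null and 969 ± 63.9 TPM in exposed wild type libraries. Capzb, a subunit of the protein that caps actin filaments, had log2 fold changes of -0.07 (SE 0.06) in naive and -0.03 (SE 0.06) in exposed mice. Those of Rpl11, a ribosomal protein, were -0.24 (SE 0.08) in naive and -0.08 (SE 0.08) in exposed mice, and those of Rsrp1 were -0.07 (SE 0.12) in naive and -0.30 (SE 0.12) in exposed mice.

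For Cep85 the ratio of counts to TPM also moved, a measure looked at after the data were seen that depends on the length of the transcripts counted. Its log2 value, relative to the library median of protein-coding genes, was -0.71 ± 0.07 in naive null (n = 5) and -1.31 ± 0.05 in naive wild type libraries (n = 4), and -1.09 ± 0.05 in exposed null and -1.40 ± 0.04 in exposed wild type libraries (n = 5 each). Null libraries were higher without overlap both times. Cep85 was the 1 member with separate ranges and a shift of at least 0.5 in naive mice, against 0.0635% of protein-coding genes. In exposed mice that member was Ahdc1, a DNA-binding protein gene, with a shift of -0.53, against 0.0544%. The ratio of null to wild type for Cep85 in naive mice was accordingly 0.0979 in TPM and 0.156 in counts.

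The response to bioparticles was not used to pick the window, and it was tested. It rests on the same libraries as the genotype contrasts, so its values are not independent of that choice. After exposure 67 of 101 members changed in null mice, 32 up and 35 down, against 44.8% of all genes tested and 60.3% of protein-coding genes at 1 TPM or more (26.0% up and 34.3% down). In wild type mice 59 changed, 28 up and 31 down, against 40.2% of all genes tested and 56.1% of protein-coding genes at 1 TPM or more (26.4% up and 29.8% down). Without naive wild type libraries 1, 2 and 3 together, 28 members changed in wild type mice, 8 up and 20 down. The members' shares over all libraries of 66.3% in null and 58.4% in wild type mice were thus near those of protein-coding genes. On a log2(TPM + 1) scale, where the median of all genes tested was -0.18 in null and -0.21 in wild type mice against 0.02 in each on counts, the splits were 10 up and 57 down in null and 9 up and 65 down in wild type mice. Over all genes in that fit, 10690 were called in null and 10579 in wild type mice. Their split by direction was not taken, there or in the fit without those naive wild type libraries, so nothing is read from these splits.

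In both genotypes 24 members rose and 25 fell, against 21.5% and 26.5% of protein-coding genes at 1 TPM or more, and 24 were called in neither, against 31.6%. No member was called in opposite directions. There were 18 members called in null mice alone and 10 in wild type mice alone, which does not show that the genotypes differ. The median log2 fold change of the members was -0.03 in null and -0.06 in wild type mice, against 0.02 over all genes tested in each.

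Id3 rose most, to 26.1 ± 5.64 TPM in exposed null mice, against 4.70 ± 1.67 TPM in naive null mice (n = 5 each), and to 94.9 ± 16.9 TPM in exposed wild type mice (n = 5), against 14.7 ± 6.13 TPM in naive wild type mice (n = 4). The log2 fold changes were 2.80 (SE 0.24, edgeR adjusted p = 5.65e-09) in null and 3.07 (SE 0.26, adjusted p = 6.55e-09) in wild type mice. Cep85 rose by 2.79 on the log2 scale (SE 0.27, edgeR adjusted p = 2.08e-08) in null and by 2.28 (SE 0.28, adjusted p = 1.19e-06) in wild type mice. Exposed null libraries, at 184 to 323 TPM, reached the range of naive wild type libraries, at 179 to 505 TPM. Thus both of these members rose in null cells that held them at lower levels than wild type cells in each condition.

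Epha2, an ephrin receptor, Camk2n1 and Nbl1, a secreted antagonist of bone morphogenetic proteins, averaged under 1 TPM over the naive libraries. These 3 members passed the TPM minimum through the exposed libraries, and responses of theirs are given without a test, although the counts over members and over roles include them. The log2 fold changes of Epha2 were 1.71 (SE 0.28) in null and 2.33 (SE 0.31) in wild type mice, at levels of 0.405 to 3.53 TPM over all libraries. Those of Nbl1 were 1.40 in null and 1.11 in wild type mice, with averages of 2.27 TPM in exposed null and 1.08 TPM in naive null mice, and of 1.43 TPM in exposed wild type and 0.852 TPM in naive wild type mice. Sfn, the 14-3-3 protein sigma of epithelia, rose by 2.44 (edgeR adjusted p = 2.04e-08) in null and by 1.36 (adjusted p = 0.000104) in wild type mice. It stood at 7.03 ± 1.48 TPM in exposed null and 1.66 ± 0.35 TPM in naive null mice, and at 7.21 ± 2.32 TPM in exposed wild type and 3.63 ± 0.826 TPM in naive wild type mice. The 6 epithelial markers summed to 559 to 766 TPM in exposed null and 426 to 553 TPM in naive null libraries, and to 903 to 2713 TPM in exposed wild type and 399 to 549 TPM in naive wild type libraries. Scgb1a1, a secreted protein of club cells, averaged 439.7 TPM in exposed null and 205 TPM in naive null mice, and 1266 TPM in exposed wild type and 247 TPM in naive wild type mice, while Epcam, an epithelial adhesion molecule, averaged 110.0 TPM in exposed null and 169 TPM in naive null mice, and 54.1 TPM in exposed wild type and 84.7 TPM in naive wild type mice. The part of epithelial RNA in the responses of Epha2 and Sfn was not tested. Without naive wild type libraries 1, 2 and 3 together, the call of Sfn in wild type mice was lost (edgeR adjusted p = 0.108).

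Of the abundant immune members, Efhd2, a calcium-binding protein of leukocytes, rose to 396 ± 28.2 TPM in exposed null mice, against 287 ± 13.2 TPM in naive null mice (n = 5 each), and to 367 ± 21.9 TPM in exposed wild type mice (n = 5), against 244 ± 14.7 TPM in naive wild type mice (n = 4). Its log2 fold changes were 0.82 (edgeR adjusted p = 1.08e-09) in null and 0.97 (adjusted p = 3.29e-10) in wild type mice.

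Themis2, an adaptor in leukocyte receptor signalling, fell most. It stood at 17.6, 17.2, 35.7, 25.8 and 17.3 TPM in exposed null libraries, against 137, 138, 112, 139 and 131.6 TPM in naive null libraries, and at 20.4, 47.9, 46.9, 21.6 and 34.1 TPM in exposed wild type libraries, against 196, 156, 172 and 180 TPM in naive wild type libraries. No exposed library reached a naive one, and the log2 fold changes were -2.18 (SE 0.21, edgeR adjusted p = 3.44e-08) in null and -2.0 (SE 0.22, adjusted p = 2.43e-07) in wild type mice. Cnr2, the cannabinoid receptor of immune cells, fell to 6.38 ± 2.08 TPM in exposed null mice, against 34.9 ± 5.22 TPM in naive null mice, and to 6.61 ± 2.46 TPM in exposed wild type mice, against 31.0 ± 1.81 TPM in naive wild type mice. Its log2 fold changes were -2.10 (SE 0.20, edgeR adjusted p = 1.94e-08) in null and -1.87 (SE 0.21, adjusted p = 2.34e-07) in wild type mice.

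E2f2, a cell cycle transcription factor, fell by 1.58 on the log2 scale (edgeR adjusted p = 2.57e-08) in null and by 1.57 (adjusted p = 6.98e-08) in wild type mice. Paqr7 fell by 1.49 (edgeR adjusted p = 3.84e-08) in null and by 1.09 (adjusted p = 5.98e-06) in wild type mice. Casp9, an initiator caspase named after its values were seen, had log2 fold changes of -1.01 in null and -1.23 in wild type mice, and completed the 5 members that fell by at least 1 in both genotypes. Rsrp1, one of the 6 most abundant members, fell by 1.14 in null (edgeR adjusted p = 8.05e-08) and by 0.91 in wild type mice (adjusted p = 4.41e-06). Usp48, a ubiquitin protease, fell by 0.93 in null (edgeR adjusted p = 3.99e-10) and by 0.68 in wild type mice (adjusted p = 1.38e-07).

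Of the members with the largest genotype difference, Tmem51 fell on exposure in both genotypes, by 0.61 in null (edgeR adjusted p = 6.06e-05) and by 0.77 in wild type mice (adjusted p = 5.61e-06). Fblim1 and Sh3bgrl3 had log2 fold changes between -0.04 and 0.13 that did not pass the test in either genotype. The counts by role below stand against 26.0% up and 34.3% down in null and 26.4% up and 29.8% down in wild type mice among protein-coding genes at 1 TPM or more. Among 15 members for the cytoskeleton and membrane traffic, 9 rose and 2 fell in null and 6 rose and 0 fell in wild type mice. Without Epha2 the rises of that list were 8 in null and 5 in wild type mice. On log2(TPM + 1) its split was 3 up and 6 down in null and 3 up and 8 down in wild type mice, so its direction depended on the scale. There 6 of the 9 rises in null and 3 of the 6 rises in wild type mice had a negative sign. Among them were the small rises of Cdc42 and Capzb in both genotypes. Among 13 members of the lysosome and glycan list, 1 rose and 7 fell in null and 0 rose and 5 fell in wild type mice. Of the 8 mitochondrial members, 2 rose and 2 fell in null and 0 rose and 4 fell in wild type mice. On log2(TPM + 1) the splits were 0 up and 12 down in each genotype for the lysosome and glycan list, whose 1 rise in null mice had a negative sign. For the mitochondrial list they were 0 up and 5 down in null and 0 up and 7 down in wild type mice. There the 2 rises of the mitochondrial list in null mice, among them that of Micos10, had a negative sign.

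The remaining lists held calls in both directions on counts. Leukocyte signalling and immune genes had 6 up and 5 down in null and 5 up and 4 down in wild type mice. Transcription factors and chromatin proteins had 3 up and 5 down in null and 5 up and 4 down in wild type mice. Genes of RNA processing and translation had 5 up and 3 down in null and 4 up and 2 down in wild type mice, and those of ubiquitin and proteolysis had 2 up and 3 down in each genotype. On log2(TPM + 1) the calls were mostly falls: immune genes had 2 up and 6 down in null and 2 up and 7 down in wild type mice, transcription and chromatin genes had 2 up and 8 down in each genotype, RNA genes had 1 up and 5 down in null and 1 up and 7 down in wild type mice, and ubiquitin genes had 0 up and 3 down in each. Rises on counts that had a negative sign on that scale, called or not, were those of Rpl11, Srrm1 and Fgr in null mice and of Srrm1, Hmgn2, Szrd1 and Zdhhc18 in wild type mice, among the members named by rule. Without naive wild type libraries 1, 2 and 3 together, no list had more than 3 rises or 4 falls in wild type mice.

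The response of each genotype was set against the other as an interaction, the null response less the wild type response. This is the genotype difference in exposed mice less that in naive mice, the values by which the window was chosen, so it is a description here and no p is given. With edgeR 2 members, Zdhhc18 and Pdik1l, passed the threshold, where 0.332% of all genes tested and 0.449% of protein-coding genes at 1 TPM or more did, and nothing is read from that share. There were 15 members with an unadjusted p under 0.05. No share over all genes was taken for that count, or for the counts at an unadjusted p given later, and nothing is read from them.

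Zdhhc18, a palmitoyltransferase of the DHHC family, stood at 35.8, 42.2, 36.4, 45.8 and 52.5 TPM in exposed null libraries, against 22.0, 26.3, 25.7, 22.2 and 26.0 TPM in naive null libraries. In wild type mice it stood at 18.6, 20.2, 20.2, 18.8 and 14.8 TPM in exposed libraries, against 19.5, 18.3, 19.3 and 16.9 TPM in naive libraries. In TPM, exposed null libraries lay above all others, and exposed and naive wild type libraries overlapped. The response was 1.09 (SE 0.10) in null and 0.35 (SE 0.10) in wild type mice on the log2 scale of counts, a difference of 0.74 (SE 0.14). It missed the threshold without naive wild type library 1, without library 3 and with a replicate block, and the wild type response was -0.0045 on log2(TPM + 1).

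Pdik1l, a serine/threonine kinase gene, stood at 1.97, 2.05, 1.42, 1.97 and 1.66 TPM in exposed null libraries, against 8.53, 7.86, 7.14, 7.50 and 8.23 TPM in naive null libraries. In wild type mice it stood at 2.19, 2.94, 2.83, 2.81 and 1.81 TPM in exposed libraries, against 5.39, 5.66, 5.26 and 8.76 TPM in naive libraries. It was thus lower after exposure in both genotypes, and by more in null. The response was -1.80 (SE 0.12) in null and -0.88 (SE 0.12) in wild type mice, a difference of -0.92 (SE 0.17). It missed the threshold without naive wild type library 1, 2 or 3, and on log2(TPM + 1), where it was -0.62.

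Other members lay below the threshold. The response of Ece1 in null minus that in wild type mice was -0.78 (SE 0.20), that of Ahdc1 was 0.89 (SE 0.23) and that of Sfn was 1.08 (SE 0.32). For Id3, Fblim1, Tmem51 and Cep85 the differences were -0.27 (SE 0.34), 0.17 (SE 0.30), 0.16 (SE 0.15) and 0.51 (SE 0.36).

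**Figure D4:**
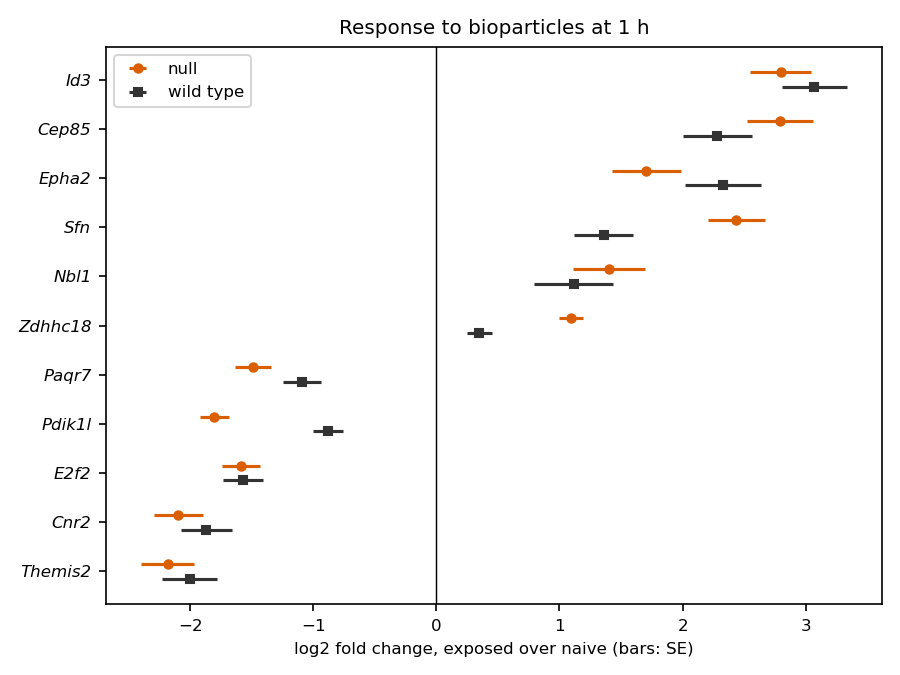
Log2 fold change of exposed over naive mice (estimated counts, bars SE) in null (circles, upper of each pair) and wild type (squares) mice, for the 10 members with the largest mean response and Zdhhc18. Id3 and Cep85 lie highest and Themis2 lowest in the mean of both genotypes, and the pairs lie apart for Sfn, Zdhhc18 and Pdik1l.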

How the data were processed

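The 19 libraries were poly(A)-selected RNA of lavage pellets, read as pairs, per the labels' protocols. Reads were processed with STAR and with StringTie version 2 on GRCm39, per the submitters' processing notes. The deposited tables hold estimated counts per gene, as whole numbers that the authors did not scale for depth, and TPM values that the authors scaled for gene length and depth. The sources used here give no strand setting or counting options, so reads of overlapping genes or of near-identical copies may be mixed.

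Groups came from the genotype and treatment labels. Estimated counts were tested by the two-sided quasi-likelihood F test of edgeR 4.0.16 (R 4.3.3). All 19 libraries entered 1 model, after TMM scaling and filterByExpr (minimum count 10, minimum total 15), and p-values were adjusted by Benjamini-Hochberg over 20501 genes. A gene is called at an adjusted p under 0.05. The 5 contrasts were the genotype in naive mice, the genotype in exposed mice, exposure in either genotype, and the interaction, which is the difference of both genotype contrasts. Values after ± are SD of TPM. Alternatives were DESeq2 1.42.0, edgeR with RLE scaling, no filter, limma 3.58.1 on log2(TPM + 1) of the deposited TPM at a mean of at least 0.1 TPM, members at 5 TPM or more, a replicate block and leaving out libraries. The procedure was tested on simulated counts.

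The members, role lists, marker lists and tests were chosen with earlier results of these data known. Members were named if among the 10 highest or 10 lowest by the mean genotype log2 fold change, the 10 largest responses called alike in both genotypes, the 6 highest levels, interaction calls, the edges of the window and of the TPM minimum, or the 3 highest of a role list. Paralogue proteins were not used here, and values of some members are not reported here. No 2 libraries of a group were identical. The lowest chi-square per gene was 3.48, between naive wild type libraries 1 and 2. It was 4.97 between libraries 1 and 3 of that group and 5.80 between libraries 2 and 3. Whether mice of a group shared a litter or day is not given, so their independence is not known. The p-values rest on the spread between these mice.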

Additional observations from a re-analysis of the deposited data

Results flagged for a closer look

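By Dixon's criterion, which sets the gap to the nearest library against the range of the group, 9 libraries among 160 groups of 40 members stood far from the others; about 1 in 20 groups is set apart by chance. Cep85 stood at 533 TPM in exposed wild type library 1, against 1404 to 1730 TPM in the other exposed wild type libraries. Id3 stood at 23.8 TPM and Pdik1l at 8.76 TPM in naive wild type library 4, the deepest library, against 11 to 12.9 and 5.26 to 5.66 TPM in the others of that group. Rcan3 stood at 11.7 TPM (others 6.81 to 7.69) and Micos10 at 37.9 TPM (others 44.9 to 47.5) in naive null library 1. Cnr2 was highest in naive null library 5 at 44.1 TPM (others 31.4 to 34.0) and in naive wild type library 1 at 33.7 TPM (others 30.0 to 30.2). Themis2 was lowest in naive null library 3 at 112 TPM (others 131.6 to 139), and Fgr was highest in exposed wild type library 3 at 148 TPM (others 114 to 121).

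The null response to exposure less the wild type response was 0.74 on the log2 scale for Zdhhc18 and -0.92 for Pdik1l. Both passed the threshold of the edgeR interaction test, which rests on the values that chose the window, and neither did so in every fit that left out 1 library.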

How the results depend on the processing

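Over all alternatives run, calls of named members kept their direction and side of the threshold 640 times and lost the threshold 88 times for genotype in naive mice, 599 and 25 times in exposed mice, 817 and 27 times for exposure in null mice, 699 and 44 times in wild type mice, and 41 and 9 times for the interaction. No genotype call of a named member reversed under any of them. Without naive wild type libraries 1, 2 and 3 together, which leaves 1 naive wild type library assumed to vary like the others, 9 members differed by genotype in naive mice, 28 changed on exposure in wild type mice and 0 in the interaction (edgeR, 6 at an unadjusted p under 0.05). The interaction called 1 member among those at 5 TPM or more, 4 with DESeq2, 1 with limma on log2(TPM + 1) and 1 with the replicate block, where Zdhhc18 was lost. The cause was not tested.

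Leaving out 1 library at a time gave 21 to 33 members for genotype in naive mice (lowest without naive wild type library 1), 28 to 34 in exposed mice, 61 to 68 for exposure in null and 51 to 61 in wild type mice, and 0 to 2 for the interaction (0 without naive wild type library 1 or 3, with 13 and 15 at an unadjusted p under 0.05).

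On log2(TPM + 1) the sign of the log2 response turned negative, among named members, in null mice for Cdc42 (-0.13), Rpl11 (-0.10), Capzb (-0.14), Fgr (-0.093), Srrm1 (-0.043) and Micos10 (-0.079). In wild type mice it did so for Zdhhc18 (-0.0045), Hmgn2 (-0.16), Cdc42 (-0.16), Capzb (-0.20), Srrm1 (-0.20), Szrd1 (-0.13) and Stmn1 (-0.033). These are changes of sign, not all of them called falls. In wild type mice Capzb passed the threshold on that scale (limma adjusted p = 0.0197), and the others did not (limma adjusted p 0.0614 to 0.98).

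Same-numbered libraries did not deviate together (27 pairs, correlations -0.048 to 0.073), so no pairing by number was seen. Such correlations cannot show whether same-numbered mice were handled together. With the replicate block the counts were 27, 30, 64, 56 and 1 for genotype in naive and in exposed mice, exposure in null and in wild type mice, and the interaction.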
